A study of Homo sapiens with 6 samples.

Results

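The 10 genes described here encode transcription factors of the AP-1 group and were taken by gene symbol from a table of 58735 genes. They were the Jun genes JUN, JUNB and JUND, the Fos genes FOS, FOSB, FOSL1 and FOSL2, and the related genes ATF3, BATF3 and MAFF. RNA-seq was performed in the established human glioblastoma line U251, in 2 groups of 3 replicates. The NC group received sterile water as the vehicle, and the TNF-α group received recombinant human tumor necrosis factor-α, an inflammatory cytokine, at 10 ng/mL. Both groups were kept in culture for 24 h. Expression was read as FPKM, fragments divided by gene length and by a scaled library total, so levels of different genes can be set side by side. A gene was tested when its FPKM reached 1 in at least 3 of the 6 libraries, which 8 of the 10 AP-1 genes and 12136 genes in all did. These 8 genes had an FPKM of at least 1 in every library of both groups. FOS and FOSB did not pass and are given by their values.

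AP-1 is a family of dimers. Jun proteins pair with each other or with Fos proteins, and Fos proteins need a Jun partner to bind DNA. The dimer holds DNA through a basic region and a leucine zipper (bZIP). It recognises the AP-1 site, of which TGACTCA is a form, or the cyclic AMP response element TGACGTCA. TNF-α is known to activate AP-1 through the JNK and p38 kinases and NF-kB through the IKK complex. In many cells FOS and FOSB are transcribed for a short time after a stimulus, while FOSL1 follows later and lasts longer.

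Libraries held 31992167 to 37897044 reads in genes. The cells expressed the glial and stem-like markers VIM, NES, SOX2 and CD44. GFAP, an astrocyte filament gene, had an FPKM of 7.10 to 9.47 in the NC group and 1.58 to 2.60 in the TNF-α group. VIM had an FPKM of 325, 341 and 362 in the NC group and 434, 974 and 850 in the TNF-α group. SOX2 had 60.8, 58.9 and 66.3, and then 57.8, 22.6 and 30.4. For SOX2, TNF-α replicate 1 was only just below the lowest NC library. Neither gene overlapped between the groups and neither was called (limma adjusted p = 0.195 for both). S100B stayed at or below an FPKM of 0.168 and OLIG2 at or below 0.0186, and AQP4 was at 0 in every library. FABP7 had a mean FPKM of 3.35 in the NC group and 2.24 in the TNF-α group, and SLC1A3 of 8.81 and 7.66. The summed FPKM of 5 leukocyte markers was 0.533 to 1.63, with PTPRC and CD3E at 0, and none of them passed the filter. Among the endothelial, epithelial and neuronal markers, only KDR and SYT1 passed the filter, with an NC mean FPKM of 6.31 and 3.63. NFKBIA, a direct NF-kB target, had an FPKM of 13.0, 13.3 and 14.4 in the NC group and 75.3, 118 and 112 in the TNF-α group (log2 fold change 2.79, limma adjusted p = 0.00415). TNF-α replicates 2 and 3 stood apart in what their reads covered. Genes over 8 kb in length held 28.8% to 29.1% of the reads in the NC libraries and TNF-α replicate 1, but 16.6% and 17.9% in TNF-α replicates 2 and 3. Ribosomal protein genes held 2.62% to 2.90% and 7.30% and 6.26%, respectively. Each AP-1 result is therefore also given by replicate, and the part of this difference in the results was not tested. In bulk RNA, a change in the share of cells that express a gene and a change in RNA per cell cannot be told apart.

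The 250 bases before the RefSeq transcription start (GRCh38.p14) are shown for the Jun genes and MAFF. These genes include the members with the largest fold changes, and each holds a motif before its start. Each region is written 5′ to 3′ on the strand of the gene, and capitals mark a motif that was found. The regions are chr19:12791236-12791485 (plus strand) for JUNB, chr1:58784048-58784297 (minus strand) for JUN, chr19:18281623-18281872 (minus strand) for JUND and chr22:38201744-38201993 (plus strand) for the first of the starts listed for MAFF.
JUNB: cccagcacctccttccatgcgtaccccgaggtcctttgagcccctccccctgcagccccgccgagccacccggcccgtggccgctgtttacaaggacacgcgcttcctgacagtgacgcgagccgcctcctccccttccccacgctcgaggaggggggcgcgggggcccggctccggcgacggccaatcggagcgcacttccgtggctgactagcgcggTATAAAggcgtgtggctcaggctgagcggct
JUN: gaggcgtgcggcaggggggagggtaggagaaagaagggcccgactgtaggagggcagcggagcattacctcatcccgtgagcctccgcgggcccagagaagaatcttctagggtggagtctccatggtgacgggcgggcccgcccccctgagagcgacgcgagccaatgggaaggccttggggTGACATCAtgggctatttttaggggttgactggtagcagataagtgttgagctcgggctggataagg
JUND: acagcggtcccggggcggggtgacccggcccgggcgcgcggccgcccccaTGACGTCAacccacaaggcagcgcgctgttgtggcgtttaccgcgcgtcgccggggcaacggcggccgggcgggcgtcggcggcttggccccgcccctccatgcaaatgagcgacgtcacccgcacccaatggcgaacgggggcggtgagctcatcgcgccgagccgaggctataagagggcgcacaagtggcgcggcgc
MAFF: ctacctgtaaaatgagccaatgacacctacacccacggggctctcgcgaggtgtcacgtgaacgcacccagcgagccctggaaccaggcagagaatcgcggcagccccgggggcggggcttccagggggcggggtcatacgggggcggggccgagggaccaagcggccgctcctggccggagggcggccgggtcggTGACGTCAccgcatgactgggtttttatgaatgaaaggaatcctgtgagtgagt

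Windows of 250 bases before and 50 bases after the start were listed for 8 of the 10 genes, 10 windows in all. FOSL1 and BATF3 had no window and were not searched. The search covered the AP-1 site as TGANTCA, with any base at N, the response element TGACGTCA and the related site TGACATCA. It also covered the NF-kB motif and the CArG box. These were searched on both strands, and the box TATAAA on the forward strand. JUNB held TATAAA from 31 to 26 bases before its start, and so did FOS and FOSB at 33 and 30 bases. JUN held TGACATCA from 67 to 60 bases before its start. JUND held TGACGTCA from 200 to 193 bases before its start, and MAFF held it from 54 to 47 bases before its start. FOSL2 held TGACTCA from 5 to 11 bases after its start. The second MAFF window held an NF-kB motif on the reverse strand, from 102 to 93 bases before its start. On the strand of the gene this stretch reads GGAGTTTCCC. ATF3 held TGACATCA 123 bases before its first start and TATAAA 230 bases before its second start. Among all 35116 windows, TATAAA occurred in 7.33%, TGANTCA in 7.71%, TGACATCA in 2.61%, TGACGTCA in 1.85%, the NF-kB motif in 5.91% and the CArG box in 1.29%. A match of letters is a description of the sequence and was not tested for binding.

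To ask whether AP-1 genes differed in TNF-α-treated cells, the groups were compared with limma on log2(FPKM + 1), and fold changes below are on this scale. JUNB, FOSL1 and MAFF were higher in the TNF-α group, and no AP-1 gene was lower, at an adjusted p below 0.05. At an unadjusted p below 0.05 there were 6 of the 8 tested genes, all with positive fold changes, against 24.2% of all tested genes in either direction. The called genes were 3 of the 8 tested genes, while 0.717% of all tested genes were called higher and 0.297% were called lower. The AP-1 genes were chosen with earlier results of these data known, so these shares are a description. The count of 3 fell to 0 when NC replicate 1, 2 or 3 or TNF-α replicate 2 or 3 was left out. Without TNF-α replicate 1 it was 6, all higher, while 42.6% of all tested genes were called higher. In 7 of the 8, every TNF-α library was above every NC library in FPKM, against 14.8% of all tested genes. FOSL2 was the exception. The total that scaled FPKM was 0.925 to 0.959 of the reads in genes in the NC libraries and TNF-α replicate 1. It was 0.693 and 0.759 in TNF-α replicates 2 and 3, which raises FPKM there. JUN had 11380 of 34736926 reads in NC replicate 3 and 11298 of 37414474 in TNF-α replicate 2. ATF3 had 400 of 37897044 in NC replicate 1 and 313 in TNF-α replicate 2. As shares of reads in genes, JUN and ATF3 therefore overlapped. In the opposite direction, 15.3% of all tested genes had every TNF-α library below every NC library, and none of the 8 did. All 8 had a positive log2 fold change, with a median of 0.94 against 0.04 over all tested genes. This tally depended on scaling. With TPM, 6 of the 8 were positive, with FOSL2 and ATF3 negative, and the medians were 0.45 and −0.42. With quantile normalization 7 were positive, with FOSL2 negative, and the medians were 0.39 and 0.01. The summed FPKM of the 10 genes was 342, 354 and 389 in the NC group and 655, 784 and 761 in the TNF-α group.

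**Figure D1:**
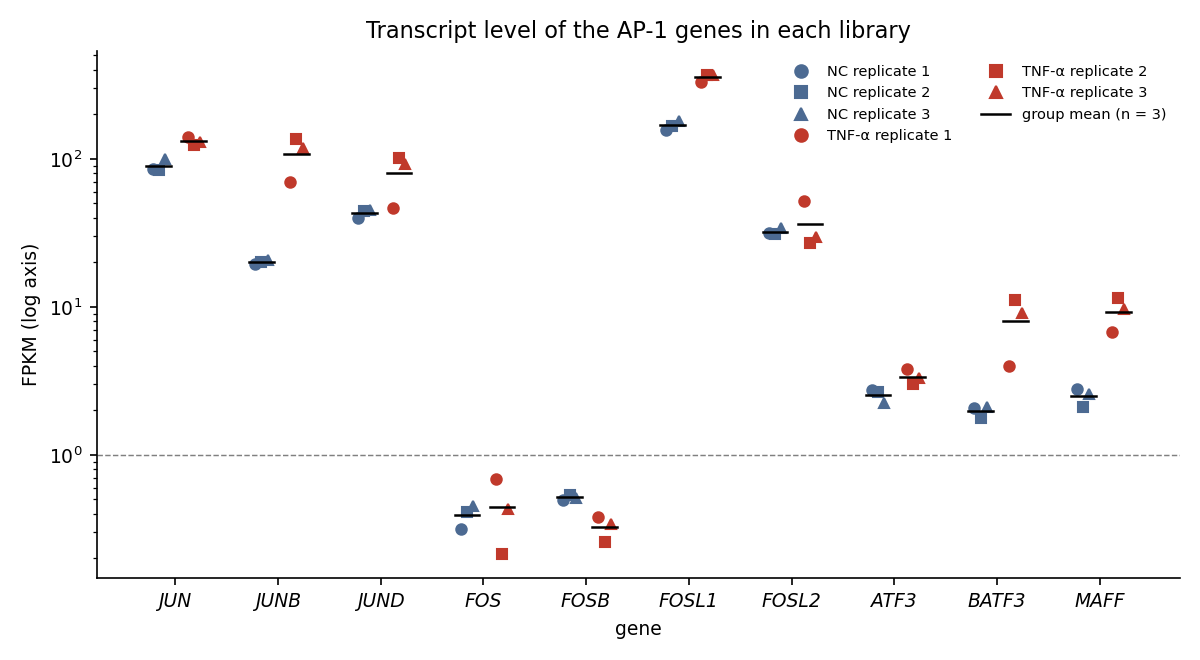
FPKM of the 10 AP-1 genes (log axis) in each library, with NC libraries in blue, TNF-α libraries in red and group means as black lines. The dashed line is an FPKM of 1. FOSL1 was the most abundant gene in all 6 libraries, and FOS and FOSB lay below the dashed line in all of them.

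JUNB, a Jun protein with weaker activation at many AP-1 sites than JUN, had the largest fold change of the AP-1 genes. Its FPKM was 19.6, 20.04 and 20.8 with vehicle and 69.4, 136 and 118 with TNF-α, in the order of replicates 1, 2 and 3, as for all genes below. The groups did not overlap, and TNF-α replicate 1 was the lowest treated library. The means were 20.1 ± 0.582 and 108 ± 34.5 (SD, n = 3), a ratio of 5.36, with a log2 fold change of 2.31 (SE 0.26, 95% interval 1.67 to 2.95, limma adjusted p = 0.0201). The gene (ENSG00000171223) has 1 exon of 1820 bases at chr19:12791496-12793315 on the plus strand. An exon of HOOK2 on the opposite strand covers 259 of these bases, or 14.2%, and whether the counting used strand is not given in the sources used here. HOOK2 had 351 to 469 reads per library in all, and JUNB had 1196 to 1290 in the NC group and 4060 to 6424 in the TNF-α group.

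JUN, the founding AP-1 subunit and a substrate of JNK, was the most abundant Jun gene in the NC group. Its FPKM was 85.4, 84.5 and 100.1 with vehicle and 140.2, 123 and 131 with TNF-α. In FPKM the groups did not overlap and the 3 treated libraries lay close together. As shares of reads in genes, the groups overlapped. The means were 90.0 ± 8.74 and 131 ± 8.54 (SD, n = 3), a ratio of 1.46. The log2 fold change of 0.54 (SE 0.16, 95% interval 0.16 to 0.92) did not pass the test (adjusted p = 0.195). It was 0.04 with TPM, 0.01 with quantile normalization, 0.25 after a GC and length correction and 0.28 with limma-voom on recovered reads. The gene (ENSG00000177606) has 1 exon at chr1:58780788-58784327 on the minus strand.

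JUND, a Jun protein that is present in most resting cells, had an FPKM of 39.9, 44.2 and 45.2 with vehicle and 46.8, 101.7 and 91.8 with TNF-α. TNF-α replicate 1 was only just above the highest NC library, at 1.09 times the NC mean, and the other two were at 2.36 and 2.13 times. The log2 fold change was 0.81 (SE 0.31, 95% interval 0.06 to 1.55, adjusted p = 0.195). JUND (ENSG00000130522, chr19:18279760-18281622, minus strand) has 1 exon with a GC content of 69.7%, against a median of 47.9% over all tested genes. After subtraction of a smooth fit on the GC content and length of the longest transcript, its log2 fold change was 0.02. It was 0.31 with TPM and 0.33 with quantile normalization.

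Because each Jun share is a ratio within a library, library scaling cannot change it. A difference between libraries that depends on gene length or GC content can. JUN has 3540 bases and a GC content of 56.7%, JUNB 1820 bases and 64.9%, and JUND 1863 bases and 69.7%. The part of such a difference in the shares was not tested. The summed FPKM of the Jun genes was 145, 149 and 166 with vehicle and 256, 361 and 341 with TNF-α, a ratio of means of 2.08. JUNB made up 13.5%, 13.5% and 12.5% of this sum in the NC group and 27.1%, 37.7% and 34.7% in the TNF-α group. The mean share was 13.2% ± 0.576 and 33.2% ± 5.48 (SD, n = 3), a difference of 20.0 percentage points. JUN made up 59.0%, 56.8% and 60.3% of the sum, and 54.7%, 34.1% and 38.4% after treatment. The share of JUND was 27.2% to 29.7% in the NC group and 18.2% to 28.2% in the TNF-α group, so the groups overlapped. The FPKM ratio of JUNB to JUND was 0.454 to 0.492 in the NC group and 1.48, 1.34 and 1.29 in the TNF-α group. The ratio of JUNB to JUN was 0.207 to 0.237 and then 0.495, 1.11 and 0.904, which exceeded 1 in TNF-α replicate 2 only.

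**Figure D2:**
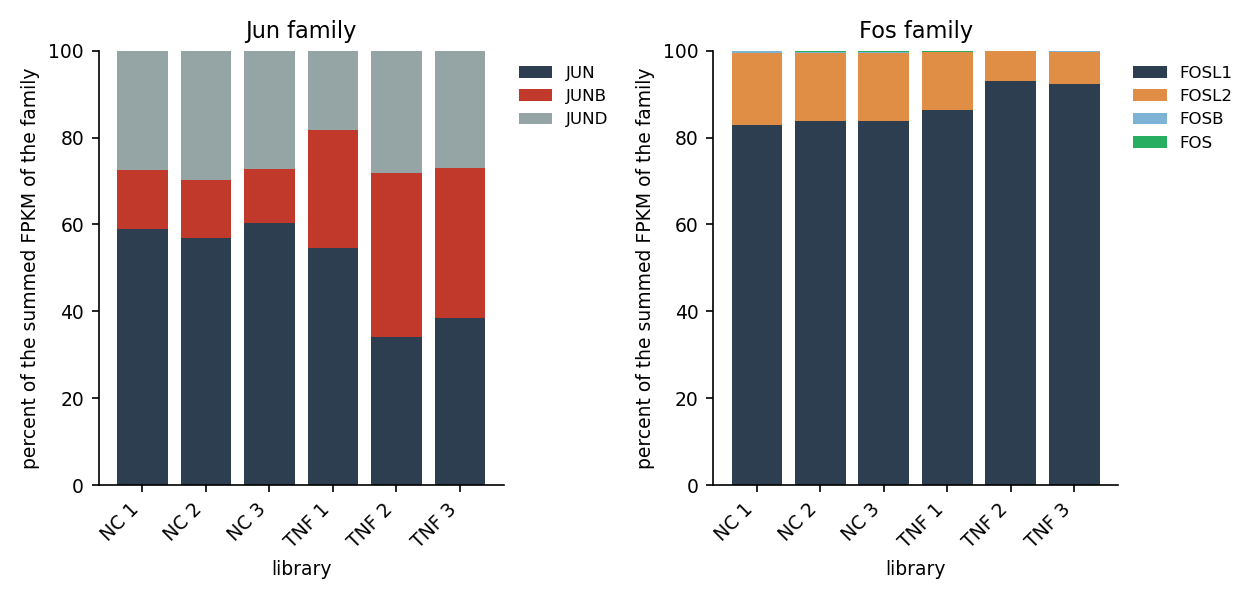
Share of each gene in the summed FPKM of the Jun family (left) and Fos family (right), as stacked percentages for each library. JUNB took 12.5% to 13.5% of the Jun sum in NC libraries and 27.1% to 37.7% in TNF-α libraries, and FOSL1 took over 80% of the Fos sum in all 6.

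FOSL1 encodes Fra-1, a Fos protein linked to migration and invasion in many tumors, and was the most abundant of the 10 genes in both groups. Its FPKM was 157, 166 and 181 with vehicle and 331, 369.6 and 368 with TNF-α. All 3 treated libraries were higher than every NC library and close to each other. The means were 168 ± 12.1 and 356 ± 21.7 (SD, n = 3), a ratio of 2.12, with a log2 fold change of 1.08 (SE 0.16, 95% interval 0.68 to 1.48, limma adjusted p = 0.0498). The adjusted p lay just under the threshold. The call was kept in 6 of 22 alternatives, and the log2 fold change fell to 0.37 after quantile normalization and 0.45 after the GC and length correction. The gene (ENSG00000175592) has 4 exon blocks at chr11:65892049-65900573 on the minus strand.

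FOSL2, which encodes Fra-2, differed between the treated libraries. Its FPKM was 31.4, 31.1 and 34.0 with vehicle and 51.7, 26.8 and 29.8 with TNF-α. TNF-α replicate 1 was above the NC range, and replicates 2 and 3 were below it. The log2 fold change was 0.10 (SE 0.26, 95% interval −0.52 to 0.73, adjusted p = 0.759), and it was −0.18 without TNF-α replicate 1 and 0.67 with that library alone. FOSL2 (ENSG00000075426, chr2:28392448-28417312, plus strand) has the longest gene length of the members, 7157 bases, against a median of 4638.5 over all tested genes.

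FOS and FOSB, the early and short-lived Fos genes, were low in both groups at 24 h. FOS had an FPKM of 0.316, 0.414 and 0.452 with vehicle and 0.692, 0.214 and 0.432 with TNF-α, from 18 to 72 reads per library. These groups overlapped. FOSB had an FPKM of 0.498, 0.538 and 0.510 with vehicle and 0.381, 0.257 and 0.341 with TNF-α, from 37 to 100 reads. Here every TNF-α library was below every NC library. In a limma fit with no filter beyond a value above 0 in 1 library, the log2 fold change was 0.04 for FOS (adjusted p = 0.875) and −0.19 for FOSB (SE 0.09, adjusted p = 0.356). FOS lies at chr14:75278774-75282230 and FOSB at chr19:45467995-45475179, both on the plus strand.

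The summed FPKM of the Fos genes was 189, 198 and 216 in the NC group and 384, 397 and 398 in the TNF-α group, a ratio of means of 1.95. FOSL1 made up 83.0%, 83.9% and 83.8% of it with vehicle and 86.2%, 93.1% and 92.3% with TNF-α. The mean gain was 7.01 percentage points. As a share of reads, which gives longer genes more weight, the means were 57.5% and 72.3%, a gain of 14.8 points. FOSL2 made up 16.6%, 15.7% and 15.7%, and then 13.5%, 6.76% and 7.47%. The FPKM ratio of FOSL1 to FOSL2 was 5.00 to 5.36 in the NC group and 6.40, 13.8 and 12.4 in the TNF-α group. FOSL1 has 1887 bases and FOSL2 has 7157 bases. The ratio was highest in TNF-α replicates 2 and 3, where long genes held a smaller share of the reads. The part of a difference by gene length or GC content in the Fos shares and this ratio was not tested. FOS and FOSB had mean shares of 0.195% and 0.257% in the NC group and 0.114% and 0.0832% in the TNF-α group.

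MAFF, a small Maf protein that lacks an activation domain and pairs with CNC and Fos factors, had an FPKM of 2.77, 2.09 and 2.59 with vehicle and 6.73, 11.4 and 9.73 with TNF-α. The groups did not overlap, and replicate 1 was again the lowest treated library. The means were 2.48 ± 0.354 and 9.28 ± 2.36 (SD, n = 3), a ratio of 3.73, with a log2 fold change of 1.54 (SE 0.20, 95% interval 1.04 to 2.03, limma adjusted p = 0.0327). The values rested on 385 to 563 reads in the NC group and 1214 to 1657 in the TNF-α group. MAFF (ENSG00000185022) lies at chr22:38200767-38216511 on the plus strand.

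BATF3, a partner of Jun proteins known for its role in dendritic cells, had an FPKM of 2.08, 1.79 and 2.11 with vehicle and 3.98, 11.2 and 9.03 with TNF-α. Every treated library was higher than every NC library, but TNF-α replicate 1 stood at 2.00 times the NC mean and the other two at 5.62 and 4.53 times. The ratio of means was 4.05, and the log2 fold change (95% interval 0.70 to 2.31, SE 0.33) did not pass the test (adjusted p = 0.135). BATF3 (ENSG00000123685) lies at chr1:212686418-212699985 on the minus strand.

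ATF3, a stress-induced factor that represses or activates depending on its partner, had an FPKM of 2.74, 2.68 and 2.25 with vehicle and 3.82, 2.99 and 3.31 with TNF-α. The groups did not overlap in FPKM, and the gap between the highest NC and the lowest treated library was small. As shares of reads in genes they overlapped. The log2 fold change was 0.30 (SE 0.13, 95% interval −0.02 to 0.62, adjusted p = 0.195). It was −0.089 with TPM, 0.05 after the GC and length correction and 0.13 with limma-voom. ATF3 (ENSG00000162772) lies at chr1:212565334-212620777 on the plus strand. The order of levels in the NC group was FOSL1, JUN, JUND, FOSL2, JUNB, ATF3, MAFF, BATF3, FOSB and FOS, and only ATF3 with MAFF and MAFF with BATF3 overlapped as neighbours. In the TNF-α group it was FOSL1, JUN, JUNB, JUND, FOSL2, MAFF, BATF3, ATF3, FOS and FOSB. There JUN with JUNB, JUNB with JUND, JUND with FOSL2, MAFF with BATF3 and FOS with FOSB overlapped.

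**Figure D3:**
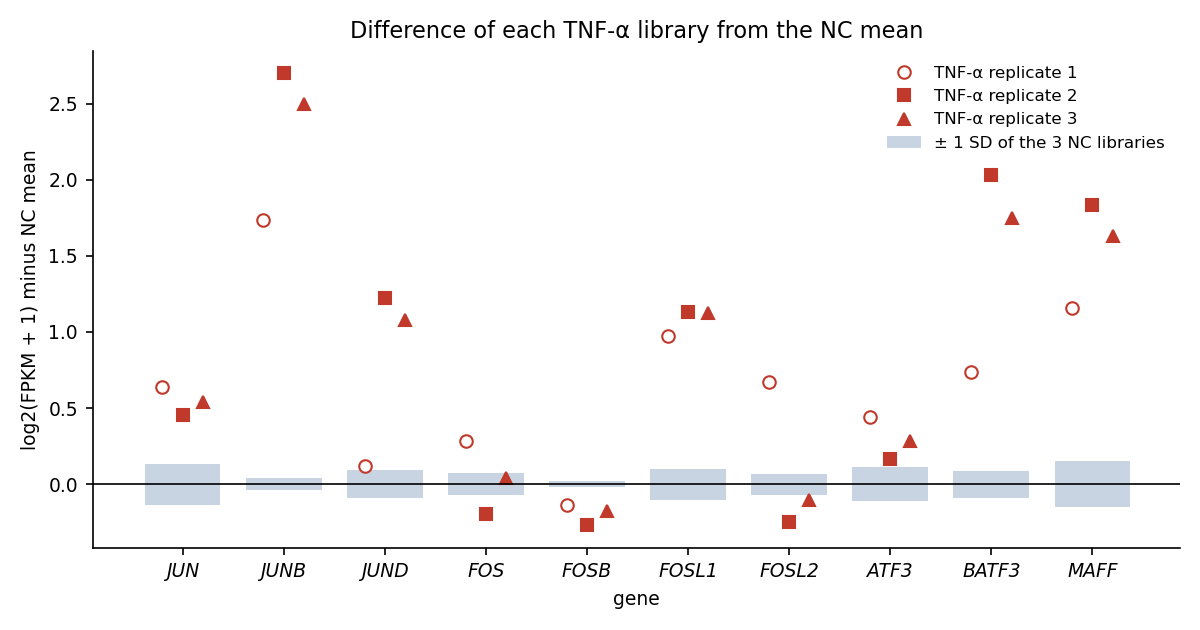
Difference of each TNF-α library from the NC mean in log2(FPKM + 1), by gene, with bands for ± 1 SD of the NC libraries and an open symbol for TNF-α replicate 1. For JUNB, JUND, FOSL1, BATF3 and MAFF, replicate 1 lay below replicates 2 and 3. For JUN, FOS, FOSB, FOSL2 and ATF3 it lay above them, with FOSL2 at 0.67 against −0.25 and −0.11.

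Against the NC mean, TNF-α replicate 1 alone, whose composition was like that of the NC libraries, was higher by 1.74 for JUNB, 1.15 for MAFF, 0.98 for FOSL1, 0.74 for BATF3, 0.67 for FOSL2, 0.64 for JUN, 0.44 for ATF3 and 0.12 for JUND on the log2 scale. This library was above every NC library for all 8 genes, against 30.5% of all tested genes. In a limma fit of this library against the NC group, with the spread taken from the NC libraries, 6 of the 8 were called higher, against 3.7% of all tested genes. The 2 not called were JUND (adjusted p = 0.538) and ATF3 (adjusted p = 0.0903). Without TNF-α replicate 1, 6 of the 8 were called higher, but so were 42.6% of all tested genes. After the GC and length correction, JUNB (log2 fold change 1.59, adjusted p = 0.00121) and MAFF (1.09, adjusted p = 0.00545) were called higher, against 1.78% of all tested genes. With NC replicate 1, 2 or 3 or TNF-α replicate 2 or 3 left out, the adjusted p of JUNB was 0.152, 0.168, 0.166, 0.0575 and 0.135. That of FOSL1 was 0.377, 0.389, 0.317, 0.184 and 0.303, and that of MAFF was 0.186, 0.241, 0.237, 0.0994 and 0.205. Without TNF-α replicate 1 all 3 were called, with adjusted p of 5.08e-06, 2.18e-05 and 1.43e-05.

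**Figure D4:**
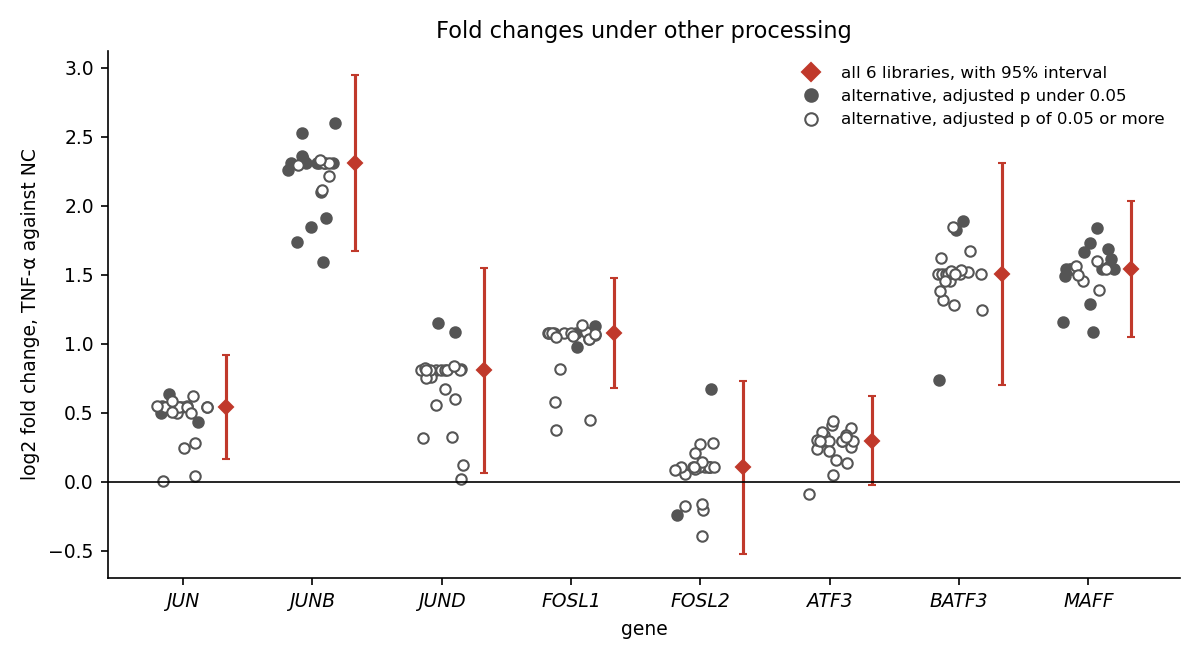
Log2 fold change of the 8 tested AP-1 genes with all 6 libraries (red diamonds, 95% interval) and under 22 other settings (circles, filled where the adjusted p was under 0.05). JUNB ranged from 1.59 to 2.60 and MAFF from 1.09 to 1.84, and only FOSL2 and ATF3 had values on both sides of 0.

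The genes with the most similar library profiles were found by the Euclidean distance between log2(FPKM + 1) profiles over the 6 libraries, centred on the NC mean. For JUNB these were DEPP1 (distance 0.20), SLC2A6 (0.38) and HBEGF (0.40). For FOSL1 they were SRGN (0.15), PDGFA (0.16) and RGMB (0.19). For MAFF they were TNF itself (0.0897), OPTN (0.23) and BCL3 (0.25). TNF had an FPKM of 0.248, 0 and 0.223 in the NC group and 1.45, 3.08 and 2.63 in the TNF-α group. The pseudocount of 1 shrinks the change of a gene at such low levels, so its nearness to MAFF depends on the pseudocount. Among the AP-1 genes, BATF3 was the nearest to MAFF, at rank 20 of all tested genes. These distances describe 6 libraries that share the composition difference given above.

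Genes around AP-1 were then counted in 4 lists. In the list of 37 other bZIP genes, 27 were tested and 0 were called by limma in either direction. Of these, 7 of 27 had an unadjusted p below 0.05, near the 24.2% of all tested genes, and limma-voom on recovered reads also called 0. Their median log2 fold change was 0.14. The smallest p belonged to CEBPB, a regulator of inflammatory genes, with an FPKM of 26.0, 25.8 and 26.5 in the NC group and 43.5, 77.6 and 72.7 in the TNF-α group (log2 fold change 1.23, adjusted p = 0.102). CEBPD followed (log2 fold change 0.96, adjusted p = 0.185). Of the 29 kinases and adaptors upstream of AP-1, 24 were tested and limma called 0, with 10 at an unadjusted p below 0.05, against 24.2% of all tested genes, and 0 called by limma-voom. Their median was 0.00. MAP2K3, an activator of p38, had an FPKM of 17.1, 17.7 and 18.2 in the NC group and 29.8, 70.8 and 58.2 in the TNF-α group (adjusted p = 0.133). MAP3K5, an upstream stress kinase, was at 10.9, 10.7 and 11.1, and then 9.44, 3.70 and 4.08 (log2 fold change −0.92, adjusted p = 0.195).

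Of the 35 genes listed as AP-1 targets, 28 were tested, and 6 (21.4%) were called higher and 0 lower, against 0.717% and 0.297% of all tested genes. Many are also NF-kB targets. This list and the immediate-early list were chosen with earlier results of these data known. Their counts therefore describe the lists and are not a test. CCL2, a monocyte-attracting chemokine, had an FPKM of 1.94, 2.09 and 2.12 in the NC group and 81.7, 145 and 151 in the TNF-α group (log2 fold change 5.33, limma adjusted p = 0.000833). CXCL8, a neutrophil-attracting chemokine, had a log2 fold change of 4.12 (adjusted p = 0.000996), and ICAM1, a leukocyte adhesion molecule, 3.76 (adjusted p = 0.000833). ICAM1 shares 23.6% of its exon bases with other genes. The remaining 3 were HBEGF, IL1B and LIF. The median over the 28 was 0.78. Of the 31 immediate-early genes outside AP-1, 22 were tested and 2 (9.09%) were called higher, against 0.717% of all tested genes. These were IER3 (log2 fold change 3.16, adjusted p = 0.0128) and DUSP5 (1.22, adjusted p = 0.0312). IER3 shares 26.5% of its exon bases with its antisense gene, so its reads cannot be told apart without strand. DUSP5 encodes a phosphatase of ERK. The median over the 22 was 0.31.

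**Figure D5:**
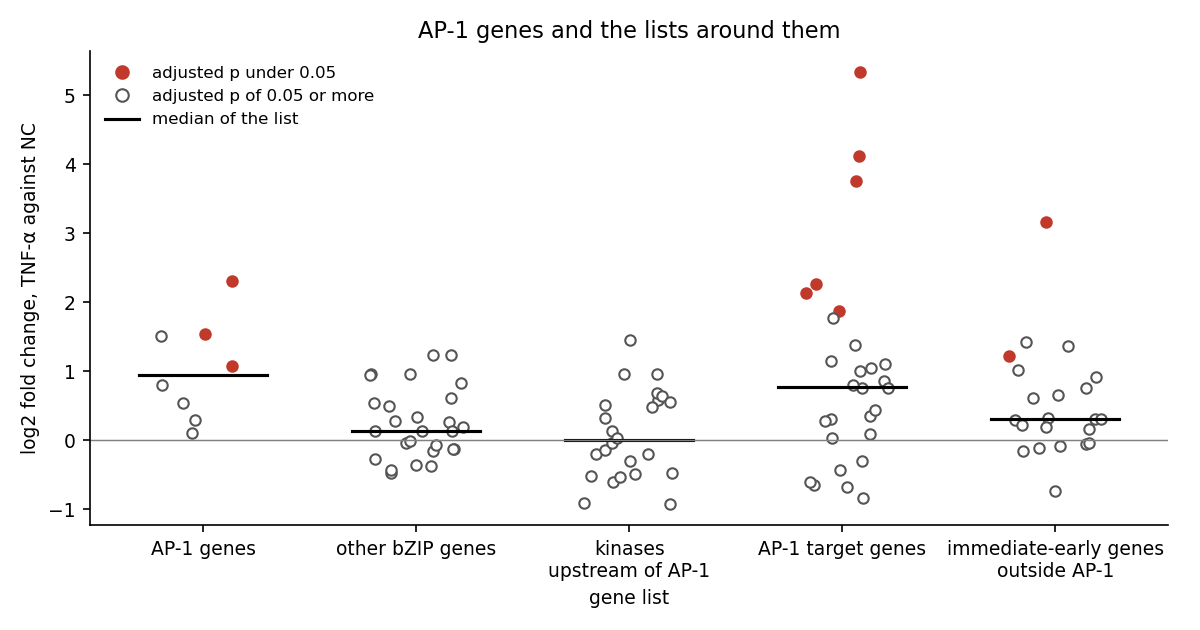
Log2 fold change of each tested gene in the AP-1 genes and 4 lists around them, with genes under an adjusted p of 0.05 in red and the median of each list as a black line. The AP-1 target list reached the largest values, up to 5.33 for CCL2, and its median of 0.78 lay near the 0.94 of the AP-1 genes.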

How the data were processed

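RNA-seq was available for 3 NC and 3 TNF-α libraries of U251 cells, assigned to groups and replicates from their titles. The authors deposited FPKM per gene, on GRCh38 with gene lengths that equal the merged exons of GENCODE release 29 for all 58735 genes. The submitters' processing notes name HISAT2 2.0.5, StringTie 1.3.3b and featureCounts 1.5.0, with no role given. A further 6 columns of values match no sample here and were not used. Within each library, 100% of the products of FPKM and gene length were multiples of 1 unit (tolerance 0.01), which gave reads. A 2 kb gene with 3 reads had an FPKM of 0.0415 to 0.0618. This covers counting error only, not PCR duplicates.

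Genes that reached an FPKM of 1 in at least 3 libraries were compared on log2(FPKM + 1), a pseudocount of 1, with limma 3.58.1 in R 4.3.3 (lmFit and trended eBayes). Tests were two-sided, with Benjamini-Hochberg adjustment over 12136 genes, and genes were called at an adjusted p below 0.05. The replicates are labelled as independent biological replicates. The method was also run on simulated reads in which the libraries had no composition difference. That simulation therefore does not cover the difference of TNF-α replicates 2 and 3 given above. The named genes were the 10 AP-1 genes, up to 3 called genes in each direction in each list, the 2 genes with the smallest p where a list had none, and the 3 genes nearest to each called AP-1 gene. The members and lists were chosen with earlier results of these data known. Promoter windows came from RefSeq (GRCh38.p14), whose starts can differ from the GENCODE gene ends given for JUN and other genes. Alternatives were 2 other pseudocounts, 3 other filters, TPM, quantile normalization, median centring, a GC and length correction (splines with 5 degrees of freedom), other eBayes options, limma-voom on recovered reads, a replicate block, and single libraries left out. Python 3.11.15 with pandas 2.3.3 was used for tables.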

Additional observations from a re-analysis of the deposited data

How the results depend on the processing

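With 22 alternatives, JUNB and MAFF stayed higher in the TNF-α group, each called in 15, and FOSL1 stayed higher and was called in 6. Their adjusted p ran from 3.6e-06 to 0.168, from 1.2e-05 to 0.241 and from 1.8e-05 to 0.389. BATF3 and JUN were called in 3, JUND in 2 and ATF3 in 0. FOSL2 was called in 2, higher with TNF-α replicate 1 alone and lower with median centring without that library. The number of called AP-1 genes was 0 with only a value above 0 required and 0 with the replicate block, 0 to 6 when a library was left out and 6 with TNF-α replicate 1 alone. It was 7 with median centring without TNF-α replicate 1, 6 higher and FOSL2 lower, an alternative chosen after seeing the data, as was a restriction to protein-coding genes. Over all tested genes 123 were called, and 58 with a value above 0 required, 58 with TPM, 185 with quantile normalization, 338 with the GC and length correction, 77 with limma-voom, 24 with the replicate block, 10 to 9630 when a library was left out, 732 with TNF-α replicate 1 alone and 9652 with centring without that library. Scaling moved the median log2 fold change of all tested genes from 0.04 to −0.42 with TPM and −0.21 with limma-voom. FOSL2 reversed to −0.39 with TPM, −0.21 with quantile normalization, −0.16 with limma-voom and −0.25 with centring without TNF-α replicate 1, and ran from −0.18 to 0.28 when a library was left out. ATF3 reversed to −0.089 with TPM, and the cause was not tested.

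Other bZIP genes had 1 call with quantile normalization, 1 with the GC and length correction, 2 with TNF-α replicate 1 alone and 0 to 20 when a library was left out. The kinases had 1, 1 and 1 and 0 to 22. The AP-1 targets had 10 with TNF-α replicate 1 alone and 3 to 25 when a library was left out, and the immediate-early genes 1 with TPM, 5 with the GC and length correction, 1 with the replicate block, 11 with TNF-α replicate 1 alone and 0 to 16. The highest counts came without TNF-α replicate 1, where 9630 of all 12136 tested genes were called. The 4 lists held 27, 24, 28 and 22 tested genes, in the order given here. The gain in the FOSL1 share was 14.8 percentage points as a share of reads. Same-numbered libraries did not deviate together (r = −0.01, −0.18 and 0.12), and 1 of the 6 libraries matched its own number best. With 3 libraries per group and TNF-α replicate 1 apart from replicates 2 and 3, these values cannot exclude a pairing. The numbers were not taken as pairs in the main fit, and a replicate block was run as an alternative. With the block, adjusted p was 0.0805 for JUNB, 0.213 for FOSL1 and 0.145 for MAFF. FOS and FOSB rested on at most 100 reads per library, which limits what these libraries can show for them.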
